A study of Mus musculus with 12 samples.

Results

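The comparison covers 6 of the 12 libraries of a mouse tumor study: 3 tumors carrying an empty vector (EV) and given the drug combination, and 3 EV tumors given vehicle, taken by their titles. All tumors were of 2153L, a mammary tumor from a genetically engineered mouse (GEM), labelled triple-negative breast cancer (TNBC), which was transplanted into the mammary fat pad of BALB/c females. The combination (combo) was the IRE1α RNase inhibitor ORIN1001 at 150 mg/kg daily with docetaxel at 20 mg/kg weekly, and treatment ran for 8 days. The other 6 tumors carried p53ERTAM, a tamoxifen-inducible form of p53, 3 under vehicle and 3 under combo. EV tumors were transduced with the vector backbone as the control for that construct, whether the EV mice also received tamoxifen is not stated in the labels, and neither drug was given alone, so the drugs cannot be told apart. Mouse age, the number of mice and pooling are not stated in the labels either. Tumors came from a single transplanted line, and where separate mice are not named the p-values measure only the spread between samples. That spread was estimated from all 12 libraries.

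IRE1α, encoded by Ern1, is a sensor in the membrane of the endoplasmic reticulum (ER) whose RNase splices Xbp1 mRNA into the template of an active transcription factor. XBP1 raises genes of protein folding, translocation into the ER, glycosylation and vesicle traffic, and is a known dependency of secretory and MYC-driven cells. Docetaxel binds tubulin, stabilises microtubules and arrests cells in mitosis. In a bulk tumor these drugs act on cancer cells and on the fibroblasts, vessels and immune cells of the host, and fewer cells of a type cannot be told apart from less RNA per cell.

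Total counts were 20431888 to 23188928 in the EV vehicle libraries and 14433361 to 17601245 in the EV combo libraries. Levels are given as CPM, counts scaled to library size with TMM factors, in the order of replicates 1, 2 and 3, and a level is compared only within a gene. Across genes, log-CPM correlations were 0.964 to 0.975 among vehicle, 0.971 to 0.976 among combo and 0.939 to 0.963 between the groups, and genes are not independent replicates. A pair of vehicle libraries stood apart. EV vehicle replicate 2 held B-cell RNA that the others lacked: Ms4a1, which encodes CD20, had 356 counts there and 0 to 4 elsewhere, and the summed level of 7 B and plasma cell markers was 199 CPM there against 1.14 to 3.15 CPM in the other 5. EV vehicle replicate 3 was more than 3 times above both other vehicle libraries in 22 of the 3505 protein-coding genes called lower with combo, EV vehicle replicate 2 in 18 and replicate 1 in 0. Replicate 3 had the lowest voom quality weight of the 12 libraries, 0.393. Values without these libraries stand beside the results that rest on them.

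The kinds of RNA in the EV combo libraries were shifted, and that shift is described here apart from the protein-coding genes. Protein-coding genes held 80.9 to 81.7% of counts with combo and 94.9 to 95.8% with vehicle. Gm42418, an annotated noncoding gene, held 1.48 to 1.67% against 0.123 to 0.195%, and Malat1, a nuclear noncoding RNA, 1.11 to 1.6% against 0.739 to 0.964%. The EV groups did not overlap for any of these shares, nor for Gm26917 (10.7 to 11.1% against 0.133 to 0.234%). Outside the EV tumors, p53ERTAM vehicle replicate 2 was within or above the EV combo range for Gm42418 (1.51%) and Malat1 (2.43%), and far below it for Gm26917 (1.1%). TEC genes are transcribed regions that the annotation lists as still to be tested by experiment, and those inside introns count intronic RNA. Of 816 tested TEC genes inside an intron of a protein-coding gene on its own strand, 700 (85.8%) were higher and 0 lower with combo, with a median log2 fold change of 2.05. On the opposite strand of an intron 4 of 18 were higher (median 0.80), and outside protein-coding genes 69 of 189 were higher and 11 lower (median 0.89). TEC genes on the strand of their host were thus higher in the largest share of these 3 classes. The hosts' own exon counts did not rise as a group. Of 810 such TEC genes 803 had a log2 fold change above that of their host gene, by a median of 1.98. The 520 host genes had a median of -0.02 against -0.14 for the other 13391 protein-coding genes, with 19.6% against 13.7% called higher and 22.9% against 25.3% lower.

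**Figure D1:**
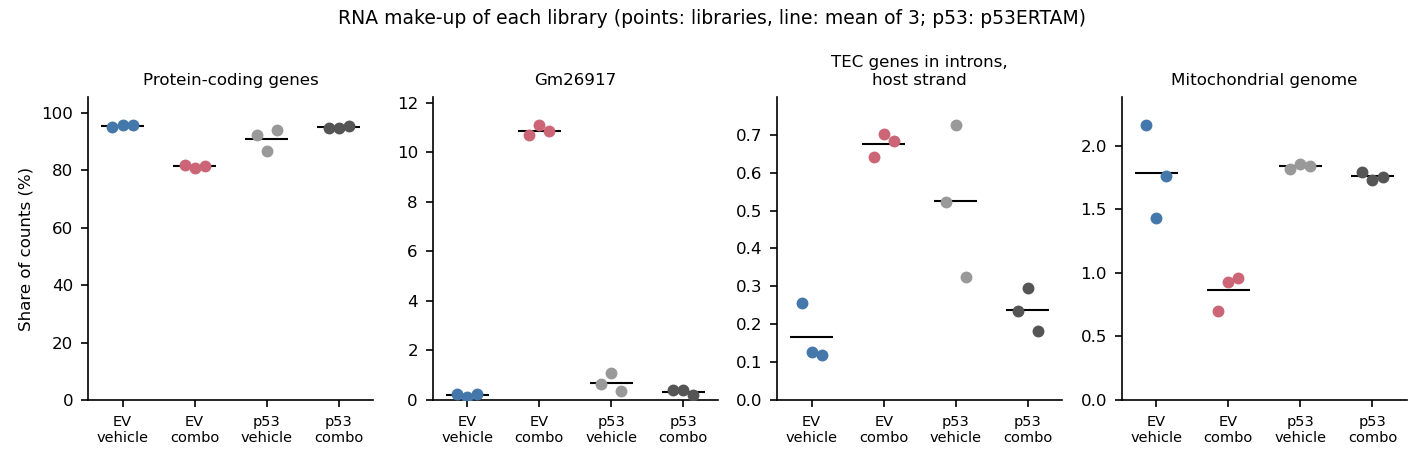
Percent of counts held by protein-coding genes, Gm26917, TEC genes inside introns on the host strand and the mitochondrial genome, with 1 point per library and a line at the mean of 3, for EV and p53ERTAM tumors (p53 on the axis) under vehicle and combo. In EV tumors TEC genes inside introns on the host strand held 0.118 to 0.257% under vehicle and 0.643 to 0.702% under combo, and the mitochondrial genome went the other way, from 1.43 to 2.16% down to 0.703 to 0.957%.

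Across protein-coding genes, secretory, translation, mitochondrial and protein-degradation genes fell, and matrix genes, stromal markers and some splicing regulators rose. By edgeR's quasi-likelihood test, at a Benjamini-Hochberg adjusted p under 0.05 over 17970 genes, 1943 of 13911 protein-coding genes (14%) were higher with combo and 3505 (25.2%) lower. Those shares are the background for each gene group below, and the lower share depends on level. Over 5 equal bins by mean CPM it went from 3.49% in the bin of lowest level to 44.7% in the highest (over 91.4 CPM), while the higher share stayed between 12.9 and 14.7%. Over all gene classes 7169 of 17970 genes (39.9%) were called. Against a fold of 1.5 the calls were 544 higher (3.91%) and 382 lower (2.75%), and in 48.8% of protein-coding genes the 3 values of each group did not overlap. Most single genes named below were picked by p or lack of overlap, so their separation is no added support. The median higher gene rose by 0.89 on the log2 scale and the median lower gene had a log2 fold change of -0.63. At least 2-fold changes were seen in 840 of the higher and 426 of the lower genes. The median of all protein-coding genes was -0.13, and scaling on protein-coding genes alone moved it to 0.00 and gave 2516 higher and 2467 lower, so which direction led depended on scaling. Leaving out each EV library in turn, 1227 of the higher calls (63.1%) and 2175 of the lower calls (62.1%) were made every time.

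Fold changes followed the structure of the genes. With protein-coding genes split into 5 bins of about equal size by the number of exon blocks, the median log2 fold change was -0.37 for genes of 1 to 5 blocks, -0.18 for 9 to 12 and 0.20 for 20 to 348. In the bin of fewest blocks 6.69% of genes were higher and 33.1% lower, and in the bin of most blocks 31.2% were higher and 8.95% lower. Summed exon length gave the same order, with medians from -0.46 (165 to 2370 bases) to 0.14 (7299 to 123180 bases). Short genes with few exons include ribosomal proteins, respiratory subunits and histones, and long genes with many exons include collagens and chromatin regulators. Counts for the gene groups are therefore also given with smooth offsets for exon length and exon number, an alternative chosen after seeing the data. The offset fit used protein-coding genes alone, so its values also include the scaling on those genes. That scaling without offsets gave 2516 higher and 2467 lower, so a change with the offsets is not due to exon length and number alone. With these offsets 1907 protein-coding genes (13.7%) were higher and 2178 (15.7%) lower, which is the background for the offset counts, and 76.6% of the higher and 52.1% of the lower calls were made again. With each library's TEC share as a covariate, 9 of the higher and 33 of the lower calls were made again. That share does not overlap between the EV groups, the median standard error was then 2.07 times as large, and the share of intronic RNA and the treatment cannot be told apart here.

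**Figure D2:**
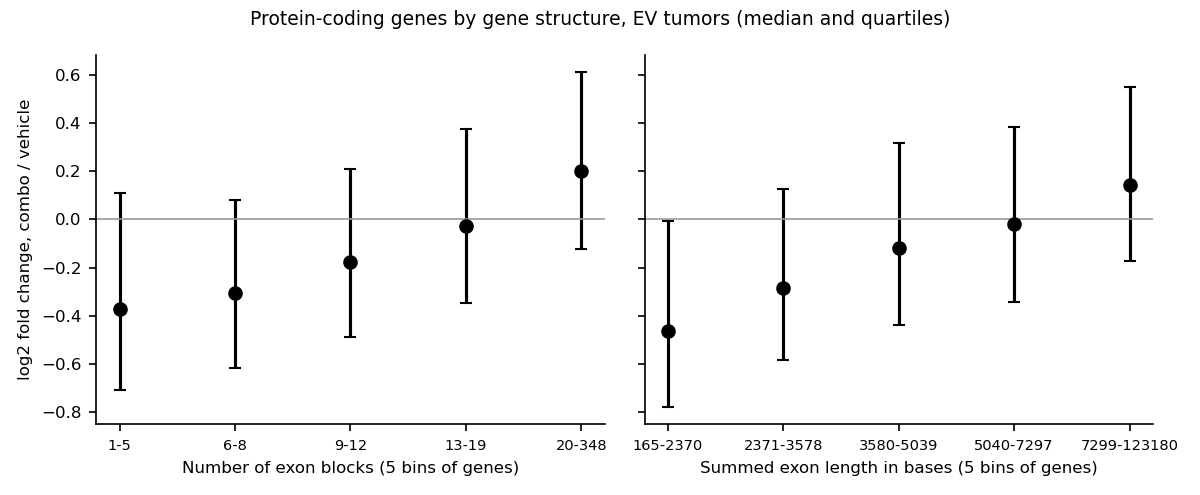
Log2 fold change, combo against vehicle in EV tumors, in 5 bins of the 13911 protein-coding genes by number of exon blocks and by summed exon length in bases, with points at the median and bars over the quartiles of genes. Medians go from -0.37 to 0.20 over the bins by exon blocks and from -0.46 to 0.14 over those by exon length.

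Genes of the unfolded protein response were lower as a group. Of 25 tested, 17 were lower and 0 higher (median -0.52), against the background of 25.2% lower, and with the offsets 12 were lower (median -0.29). Scaling on protein-coding genes alone left 10 lower (median -0.39) and upper-quartile scaling 9. Against a fold of 1.5 edgeR called none, with 3 lower at an unadjusted p under 0.05. Of the 25 genes 13 were in the bin of highest level, where 44.7% were lower. Leaving out 1 EV library gave 10 to 15 lower, with 10 without EV combo replicate 2 and 11 without EV vehicle replicate 2. Ern1 itself, the target of ORIN1001, stood at 60.5, 71 and 64.3 CPM with vehicle and 64.7, 71.7 and 62.1 with combo, and the groups overlapped (log2 fold change 0.02, edgeR adjusted p = 0.893). Xbp1, the transcription factor whose mRNA IRE1α splices, stood at 122, 166 and 273 CPM with vehicle and at 85.7, 99.7 and 76.8 with combo. All 3 combo libraries lay below all 3 vehicle libraries, and the highest vehicle value was replicate 3. Without that library the log2 fold change of Xbp1 moved from -1.10 to -0.69 (edgeR adjusted p = 0.00573). Gene counts do not separate spliced from unspliced Xbp1.

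The folding genes downstream moved unequally. Dnajc3, a co-chaperone that restrains the kinase PERK, read 210.3, 219 and 261 CPM under vehicle and 146, 135 and 138 under combo (log2 fold change -0.72, SE 0.113, edgeR adjusted p = 0.000528). Canx, the membrane lectin chaperone calnexin, read 540.2, 556 and 532 against 335, 335 and 311 CPM (-0.73, adjusted p = 0.000668). Pdia6, a disulfide isomerase, read 255, 282 and 290.4 against 183, 185 and 170.2 CPM (-0.62, adjusted p = 0.00137). In each of these 3 genes the groups were well separated, and the offsets left the changes at -0.67, -0.71 and -0.48. Hspa5, the abundant ER chaperone BiP, stood at 881, 1019 and 853 CPM under vehicle and 843, 758 and 778 under combo, with every combo value below every vehicle value by a small margin. Its log2 fold change was -0.21 and was not called (edgeR adjusted p = 0.24). Hsp90b1, the ER form of HSP90, was called lower (-0.37, edgeR adjusted p = 0.0382), but scaling on protein-coding genes alone and most refits without 1 library ended that call. Atf4, the transcription factor translated when PERK is active, was lower by 0.59 on the log2 scale (edgeR adjusted p = 0.000744), and read -0.09 without a call with the offsets (adjusted p = 0.601). Ddit3, the stress factor CHOP, overlapped between groups (6.96, 12.9 and 10.7 CPM under vehicle and 13, 7.51 and 5.53 under combo, edgeR adjusted p = 0.628).

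Promoters of some of these genes are shown with an element tied to this response. The list gathers genes known for the response, so its share with the element is not an independent result. The ER stress response element (ERSE) is CCAAT, a spacer of 9 bases and CCACG, and is known to bind NF-Y together with ATF6 or XBP1. Among 22 unfolded protein response genes with a promoter in the RefSeq table (GRCm38.p6, 250 bases before to 50 after the start), 7 (31.8%) held it on either strand and 15 did not, against 17 of 10822 tested protein-coding genes (0.157%). The elements below lie wholly upstream of the start, read 5′ to 3′ on the strand named, with CCAAT and CCACG in capitals.
Calr, chr8:84847060-84847108, plus strand: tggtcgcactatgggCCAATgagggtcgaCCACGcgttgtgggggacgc
Canx, chr11:50325785-50325833, minus strand: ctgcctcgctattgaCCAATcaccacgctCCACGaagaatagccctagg
Dnajc3, chr14:118937812-118937860, plus strand: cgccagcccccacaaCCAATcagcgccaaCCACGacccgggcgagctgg
Hsp90b1, chr10:86705518-86705566, plus strand: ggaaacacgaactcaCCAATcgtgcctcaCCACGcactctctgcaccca
Hsp90b1, chr10:86705623-86705671, minus strand: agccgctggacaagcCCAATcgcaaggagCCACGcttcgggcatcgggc
Pdia6, chr12:17266476-17266524, plus strand: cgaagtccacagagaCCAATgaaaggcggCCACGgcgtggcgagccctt
Hspa5, chr2:34772010-34772058, plus strand: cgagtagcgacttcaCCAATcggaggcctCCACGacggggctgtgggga
Creld2, chr15:88819505-88819553, minus strand: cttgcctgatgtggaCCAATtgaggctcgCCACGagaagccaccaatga
Of these 7 genes, Calr, Canx, Dnajc3, Hsp90b1 and Pdia6 were called lower. Calr, the soluble partner of calnexin, stood at 668, 747 and 731 CPM with vehicle and 484, 493 and 473 with combo (-0.56, edgeR adjusted p = 0.00158; -0.29 with the offsets). Hspa5 and Creld2, a disulfide isomerase of the ER, hold the same letters and were not called (-0.21 and -0.21). Creld2 shares its element with the divergent gene Alg12, an N-glycosylation enzyme that was not called either (0.05). Over all 17 genes with the element 4 were higher and 6 lower. Matching letters do not show that a factor was bound.

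Genes that carry proteins into and through the ER were lower more often than protein-coding genes overall. Of 23 translocon and signal peptidase genes, 18 were lower and 0 higher (median -0.56, and 12 lower with the offsets). In the bin of highest level, where 44.7% of protein-coding genes were lower, were 13 of the 23. Serp1, a translocon-associated protein induced by ER stress, stood at 415, 386 and 616 CPM with vehicle and 182, 185 and 197 with combo (log2 fold change -1.33, edgeR adjusted p = 0.000179). Spcs3, the subunit of signal peptidase that completes its active enzyme, went from 492, 546 and 633 to 227, 272 and 178 CPM (-1.30, adjusted p = 0.000112). Ssr3, of the translocon-associated protein complex, went from 584, 607 and 615 to 364, 339.9 and 339.6 CPM (-0.79, adjusted p = 0.000275). For all 3 genes the lowest vehicle value exceeded the highest combo value by a wide margin. Of 23 genes of the oligosaccharyltransferase and of N-glycosylation, which attach sugar trees to new proteins, 16 were lower and 1 higher (median -0.53, and 13 lower and 1 higher with the offsets). Magt1, a subunit of that transferase, changed by -0.92 and Ddost, its structural subunit, by -0.75 (edgeR adjusted p = 0.000882 and 0.001). COPI and COPII genes, the coats of vesicles between ER and Golgi, were lower in 13 of 26 and higher in 0 (median -0.38, and 12 lower with the offsets). Of these 26 genes 18 were in the bin of highest level, so their share of lower genes was near that of genes at their level.

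The letters TGACGTGG, an element known to bind XBP1, stand on either strand of 5 of 22 COPI and COPII promoters (22.7%) and of 110 of all 10822 promoters (1.02%). Of the 110 genes 12 were higher and 29 lower, shares near the background, and of the 5 only Copb1, a COPI coat subunit, was called (median of the 5 -0.07). Elements that lie wholly upstream of the start are shown for 3 of them, in capitals, on the strand of GRCm38.p6 named.
Copb1, chr7:114254686-114254723, plus strand: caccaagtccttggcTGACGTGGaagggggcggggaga
Kdelr3, chr15:79516363-79516400, minus strand: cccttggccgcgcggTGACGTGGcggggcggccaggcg
Sec24d, chr3:123267455-123267492, plus strand: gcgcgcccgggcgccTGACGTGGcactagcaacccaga
Copb1 stood at 130.1, 137 and 173 CPM with vehicle and 116, 98.2 and 103 with combo (log2 fold change -0.47, edgeR adjusted p = 0.0136). Its call was lost without EV combo replicate 2 (adjusted p = 0.0505) or EV vehicle replicate 3 (0.0837). Kdelr3, a receptor that returns ER proteins from the Golgi, and Sec24d, a COPII cargo adaptor, hold the same letters and read 0.12 and 0.08 without a call (edgeR adjusted p = 0.798 and 0.865).

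As fitted, ribosomal protein genes were the list in which the largest share fell; with the offsets that share was larger among tricarboxylic acid cycle genes and chaperones. Of 65 cytosolic ribosomal proteins, 58 were lower and 0 higher (median -0.87), and 55 to 58 were lower when 1 EV library was left out. These are short genes, and with the offsets 37 were lower (median -0.43). Of the 65 genes 54 were in the bin of highest level, where 44.7% of protein-coding genes were lower. Rps20, of the small subunit, stood at 294, 290.2 and 251 CPM under vehicle and 103, 131 and 108 under combo (log2 fold change -1.29, SE 0.108, edgeR adjusted p = 2.5e-05). Rps9, also of the small subunit, had 253, 239 and 260.2 CPM under vehicle and 119, 138 and 123 under combo (-0.99, adjusted p = 4e-05). Rplp2, of the stalk that recruits elongation factors, had 311, 285 and 348 CPM under vehicle and 145, 152 and 125 under combo (-1.16, adjusted p = 4.4e-05). Every combo value was far below the lowest vehicle value in these genes, which were picked for small p and no overlap. Replicates within a group were close. Rplp1, the stalk partner of Rplp2, was lower by 1.11 on the log2 scale as fitted and read -0.35 without a call with the offsets (adjusted p = 0.208). Ribosomal protein genes have many processed pseudogenes, and how shared reads were assigned is not given in the sources used here. Of 33 lower calls that were made again with the TEC covariate, 11 were ribosomal proteins.

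Mitochondrial ribosomal proteins were lower in 24 of 40 and higher in 1 (median -0.48), but lower in 15 with upper-quartile scaling and in 5, with 2 higher, with the offsets. Mrpl12, which also contacts the mitochondrial RNA polymerase, went from 108, 107 and 114 to 52.5, 64.7 and 50.9 CPM (edgeR adjusted p = 0.000101). Translation initiation and elongation factors were lower in 20 of 29 (median -0.51, and 15 with the offsets), with 0 higher. In the bin of highest level were 21 of the 29. Eef1a1, which delivers aminoacyl-tRNA to the ribosome, stood at 3733, 3886 and 3599.6 CPM with vehicle and 1734, 2022 and 1654 with combo (-1.05, edgeR adjusted p = 0.000113). Eif1, a factor of start-codon choice, changed by -0.88 (adjusted p = 6.8e-05). Vehicle and combo values of Eef1a1 and Eif1 did not overlap. Of nucleolar and ribosome biogenesis genes, 9 of 30 were lower and 1 higher (median -0.25, 7 lower with the offsets and 5 with scaling on protein-coding genes), a share of lower genes near the background that fell to 3 without EV combo replicate 1 and to 5 without EV combo replicate 3 or vehicle replicate 2. Npm1, the nucleolar chaperone nucleophosmin, was among the 9 (-0.79, edgeR adjusted p = 0.000579). Genes of amino-acid synthesis and tRNA charging were lower in 13 of 28 and higher in 0 (median -0.42, and 12 lower with the offsets), with 12 of the 28 in the bin of highest level. Psat1, an enzyme of serine synthesis and an ATF4 target, went from 255, 266 and 311 to 116, 132 and 118 CPM, with the groups far apart.

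Nuclear genes of oxidative phosphorylation were lower in 40 of 47 and higher in 0 (median -0.76). With the offsets 21 were lower (median -0.36), and leaving out 1 EV library gave 31 to 39. Of the 47 genes 23 were in the bin of highest level, where 44.7% of protein-coding genes were lower. Uqcrq, a subunit of complex III, stood at 71.9, 53.4 and 65.8 CPM under vehicle and 25.4, 27.5 and 29.5 under combo (log2 fold change -1.21, SE 0.137, edgeR adjusted p = 0.000107). Sdhd, the membrane anchor of complex II, had 123, 144 and 150.4 CPM under vehicle and 68, 69.6 and 67.2 under combo (-1.03, adjusted p = 0.000103). Cox4i1, of complex IV, had 196, 174 and 235 CPM under vehicle and 106, 100.3 and 113 under combo (-0.93, adjusted p = 0.000151). The groups stayed apart in each of these genes. Tricarboxylic acid cycle genes were lower in 12 of 18 with and without the offsets, and higher in 0, with 10 of the 18 in the bin of highest level. Cs, the citrate synthase, changed by -0.70 and Pdha1, of the complex that feeds pyruvate into the cycle, by -0.81 (edgeR adjusted p = 0.000242 and 0.000102). Transcripts of the mitochondrial genome also took a smaller share of counts, as the plot of RNA classes shows.

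Glycolysis did not follow this pattern, with 4 of 21 higher and 5 lower (median -0.32). With the offsets 3 were higher and 4 lower, and with scaling on protein-coding genes 5 and 2. There were 8 lower without EV combo replicate 1, 1 without EV vehicle replicate 2 and 2 without EV vehicle replicate 3, combo replicate 2 or combo replicate 3. The higher count was 2 without replicate 1 of either EV group. Ldha, lactate dehydrogenase A, was among the lower (571, 785 and 905 CPM under vehicle, 534, 424 and 374 under combo, edgeR adjusted p = 0.00281), with a narrow gap between vehicle replicate 1 and combo replicate 1. None of 18 hypoxia-response genes was called by edgeR (median 0.13), with 2 higher and 2 lower at an unadjusted p under 0.05, 1 call by DESeq2 and 1 by voom. By edgeR 3 were called lower without EV combo replicate 1 and 3 higher without EV combo replicate 3. Vegfa, the vessel growth factor, varied from 63.2, 218 and 118 CPM under vehicle to 545, 227 and 149 under combo and overlapped (log2 fold change 1.21, edgeR adjusted p = 0.0808). It became a call without EV combo replicate 3 (adjusted p = 0.0457) or EV vehicle replicate 2 (0.0232). Cholesterol and fatty-acid synthesis genes were lower in 16 of 30 and higher in 0 (median -0.45, and 12 lower with the offsets), and 10 were lower with upper-quartile scaling and without EV combo replicate 2 or 1 of vehicle replicates 2 and 3. Of the 30 genes 17 were in the bin of highest level, where 44.7% of protein-coding genes were lower. Scd1, the desaturase that makes oleic acid, stood at 1345, 1205 and 1202 CPM under vehicle and 675, 620.3 and 421 under combo, and its groups were far apart (-1.13, edgeR adjusted p = 0.0002).

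**Figure D3:**
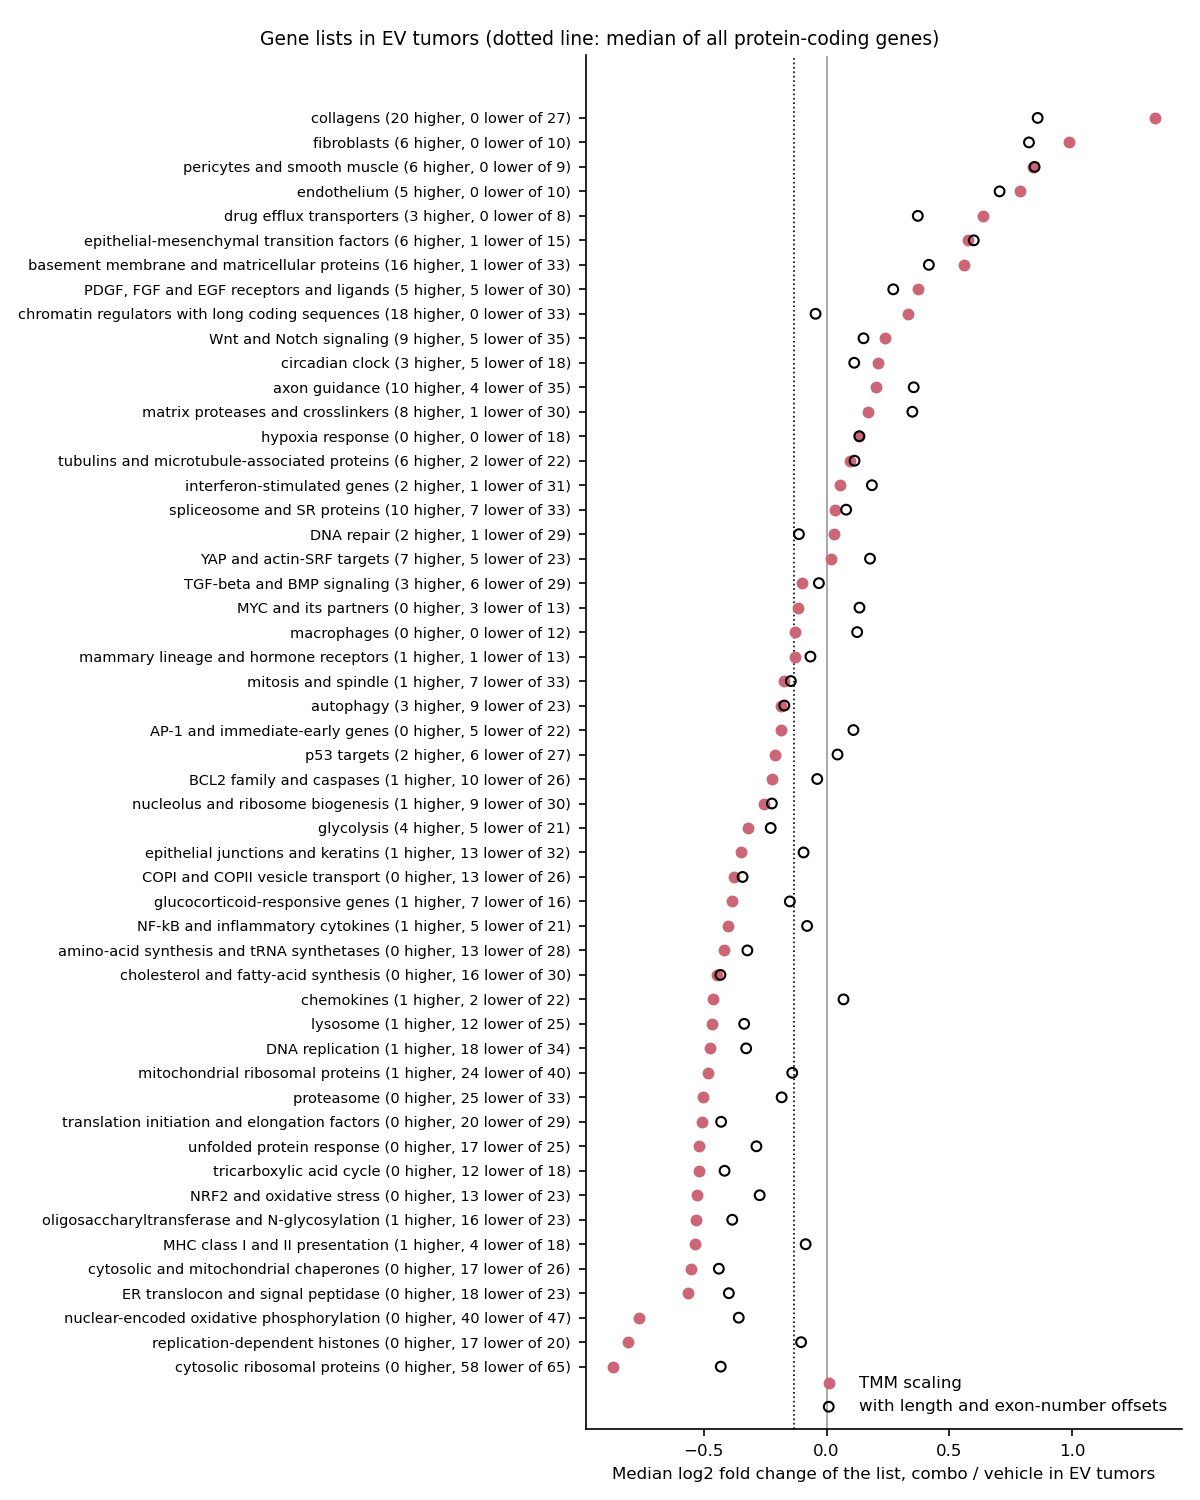
Median log2 fold change of each gene list in EV tumors, as fitted (filled) and with offsets for exon length and exon number (open), with the counts of genes called in the row labels and a dotted line at the median of all protein-coding genes (-0.13). Ribosomal proteins move from -0.87 to -0.43 and histones from -0.81 to -0.10 with the offsets, and collagens from 1.34 to 0.86. The offset fit also includes scaling on protein-coding genes alone.

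Proteasome genes were lower in 25 of 33 and higher in 0 (median -0.50). That count fell to 16 with scaling on protein-coding genes and to 8 with the offsets (median -0.18). Of the 33 genes 18 were in the bin of highest level, where 44.7% of protein-coding genes were lower. Psmb5, the catalytic subunit that bortezomib inhibits, stood at 38.6, 35.9 and 31.3 CPM with vehicle and 17.4, 21 and 19.3 with combo, and its call was lost with the offsets (log2 fold change -0.88 as fitted and -0.20 with them). Psmd2, a scaffold of the regulatory particle, had 210.4, 214 and 208 CPM under vehicle and 138, 154 and 143 under combo, did not overlap and read -0.54 and -0.55. Psmd8, a lid subunit, changed by -0.83 and by -0.51 with the offsets. Cytosolic and mitochondrial chaperones were lower in 17 of 26 (median -0.55, and 16 with the offsets), with 14 of the 26 in the bin of highest level. Hspe1, the small partner of the mitochondrial chaperonin, stood at 85.5, 51.7 and 82.4 CPM under vehicle and 30.5, 36.6 and 36.1 under combo, with no overlap (edgeR adjusted p = 0.000573).

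Antioxidant genes of the NRF2 pathway were lower in 13 of 23 and higher in 0 (median -0.53, and 8 lower with the offsets). Gsr, which regenerates reduced glutathione, went from 249.99, 234 and 290.2 to 107, 133 and 112 CPM (log2 fold change -1.14, edgeR adjusted p = 9.7e-05). Gpx4, which reduces lipid peroxides and restrains ferroptosis, went from 165, 186 and 249.8 to 96.5, 111 and 88 CPM (-1.02, adjusted p = 0.00109). All combo libraries lay below all vehicle libraries for both. Lysosome genes were lower in 12 of 25 and higher in 1 (median -0.47, 8 lower with the offsets, 6 with upper-quartile scaling, and 7 without EV combo replicate 3). Of the 25 genes 13 were in the bin of highest level, where 44.7% of protein-coding genes were lower. Lamp1, the main lysosomal membrane protein, had 767, 812 and 955 CPM under vehicle and 415, 458 and 368 under combo, and Psap, a cofactor of lipid breakdown, 932, 914 and 905 CPM under vehicle and 659, 626 and 697 under combo. Both sets were separated. Autophagy genes were split, with 9 of 23 lower and 3 higher, and with the offsets 6 and 3.

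Cell-cycle genes were mixed. Of 34 DNA replication genes 18 were lower and 1 higher (median -0.47, and 15 lower with the offsets), and leaving out 1 EV library gave 12 to 18 lower. Fen1, the flap nuclease of lagging-strand synthesis, stood at 92.6, 113 and 124 CPM under vehicle and 45.2, 54.6 and 52.5 under combo. Ccne1, cyclin E1, stood at 20.1, 22.9 and 34.6 CPM under vehicle and 8, 13.8 and 9.17 under combo, with vehicle replicate 3 the highest and no overlap. Of 33 mitosis and spindle genes 7 were lower and 1 higher (median -0.17, and the same counts with the offsets), under the background for lower genes, and 4 were lower without EV vehicle replicate 3. Kif11, the motor that separates spindle poles, was among the lower at 273, 297 and 343 CPM under vehicle and 171, 185 and 163 under combo (-0.81, edgeR adjusted p = 0.00136). Espl1, the separase that cuts cohesin at anaphase, was the 1 that was higher, at 69.7, 82.9 and 87.9 CPM under vehicle and 139, 116 and 149 under combo (0.75, adjusted p = 0.00219). Mki67, the proliferation marker Ki-67, overlapped between the groups (449.6, 454 and 686 CPM under vehicle and 461, 428 and 521 under combo, adjusted p = 0.369). So did Myc (120.01, 105 and 68.5 CPM under vehicle and 82.6, 100.3 and 99 under combo, adjusted p = 0.807). DNA repair genes were near flat, with 2 of 29 higher and 1 lower (median 0.03), but 5 higher with scaling on protein-coding genes, and 3 higher and 4 lower (median -0.11) with the offsets.

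Replication-dependent histone genes were lower in 17 of 20 (median -0.81). They are short genes of 1 exon block whose mRNAs carry no poly(A) tail, and with the offsets 2 were lower (median -0.10). Members are near-identical copies, so their counts can include reads of one another.

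Tubulins and microtubule-associated proteins, the targets of docetaxel and their partners, were higher in 6 of 22 and lower in 2 (median 0.09), with the same counts with the offsets. Tuba1a, an α-tubulin abundant in neurons, stood at 42.3, 38.1 and 26.5 CPM with vehicle and 92.3, 53.3 and 100.1 with combo (log2 fold change 1.20, edgeR adjusted p = 0.00136). Tubb2b, a β-tubulin, stood at 26.4, 13.5 and 16.8 CPM under vehicle and 36.3, 32.9 and 54.2 under combo (1.12, adjusted p = 0.00235). Both rose without overlap, and tubulin paralogs can share reads. Tubb3, the β-tubulin often named in taxane resistance, had 14, 0 and 0 counts with vehicle and 4, 8 and 0 with combo and was not tested. Among 8 tested drug efflux transporters 3 were higher and 0 lower (median 0.64), and 2 higher with the offsets. Abcc10, an exporter of taxanes, stood at 9.72, 12.2 and 13.9 CPM under vehicle and 31.4, 29 and 22.5 under combo (1.21, edgeR adjusted p = 0.00162), and Abcg2, the breast cancer resistance protein, at 3.3, 4.39 and 3.59 CPM under vehicle and 10.7, 7.01 and 8.77 under combo (1.23, adjusted p = 0.00179). The groups did not overlap for either. Abcb1a and Abcb1b, the mouse P-glycoprotein genes, overlapped, with 0.345, 1.23 and 0.417 against 1.71, 0.289 and 1.82 CPM and 2.42, 3.77 and 1.15 against 3.43, 3.18 and 3.08 CPM (adjusted p = 0.224 and 0.422). Abcb1a became a call without EV combo replicate 2 (adjusted p = 0.0483) or EV vehicle replicate 2 (0.0452).

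p53 target genes showed no common direction, with 2 of 27 higher and 6 lower (median -0.21). With the offsets 3 were higher and 2 lower (median 0.04), with scaling on protein-coding genes 3 and 3, and 3 were lower without EV combo replicate 3 or vehicle replicate 2. Trp53, the p53 gene, overlapped at 41.9, 55 and 40.2 CPM under vehicle and 48.2, 51.4 and 39.8 under combo. Cdkn1a, the p53-induced cell-cycle inhibitor p21, had 26.2, 45.2 and 26.8 CPM under vehicle and 53.9, 22.3 and 25.2 under combo, and its highest value was combo replicate 1. Mdm2, the ubiquitin ligase of p53, had 60.8, 71.2 and 70.1 CPM under vehicle and 82.6, 62.8 and 65 under combo. None of these 3 was called (edgeR adjusted p = 0.912, 0.928 and 0.759). Ccng1, cyclin G1, was lower without overlap (57.4, 63.2 and 51.9 CPM under vehicle and 26.8, 32 and 34.1 under combo, -0.89, edgeR adjusted p = 0.000241), and Ddb2, a sensor of DNA damage, higher without overlap (13, 14 and 11.4 CPM under vehicle and 28.1, 20.7 and 23.4 under combo, 0.91, adjusted p = 0.00147).

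Among BCL2 family and caspase genes 10 of 26 were lower and 1 higher (median -0.22, and 4 lower and 2 higher with the offsets). Bak1, a pore-forming effector of mitochondrial death, went from 90.9, 78.9 and 74.4 CPM under vehicle to 44.4, 52.1 and 40.6 under combo (log2 fold change -0.83, SE 0.17, edgeR adjusted p = 0.00216). Every combo library was below every vehicle library. These are mRNA levels and say nothing of cell death.

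Clock genes changed in opposite directions. Of 18 tested 3 were higher and 5 lower (median 0.21) and with the offsets 4 and 5. With scaling on protein-coding genes, or without EV vehicle replicate 3, the higher count was 5. Nr1d1, the repressor REV-ERBα, stood at 37.8, 66.6 and 137 CPM with vehicle and 31.3, 11.1 and 22.6 with combo, and Nr1d2, its paralog REV-ERBβ, at 123, 193 and 231 CPM under vehicle and 78.2, 51.1 and 72.8 under combo. Dbp, an output factor of the clock, stood at 5.77, 10.7 and 57 CPM under vehicle and 5.33, 1.3 and 2.91 under combo. The groups did not overlap, though vehicle replicate 1 was close to combo replicate 1 for Nr1d1 and Dbp, and vehicle replicate 3 was far the highest. Without that library Nr1d1 went from -1.89 to -1.24 (edgeR adjusted p = 0.024) and Dbp from -2.93 to -1.34 (0.0334). Hlf, related to Dbp, was lower as well (183, 119 and 192 CPM under vehicle and 95.4, 90.7 and 85.1 under combo). Arntl, the activator BMAL1 that REV-ERB proteins repress, was higher, at 14.2, 16.3 and 14 CPM under vehicle and 31, 26.7 and 28.2 under combo (0.95, adjusted p = 0.00288). The hour at which each tumor was taken is not stated in the labels, and its part in the result was not tested.

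Glucocorticoid-responsive genes were lower in 7 of 16 and higher in 1 (median -0.39, and 4 lower with the offsets or without EV vehicle replicate 3). Tsc22d3, the glucocorticoid-induced leucine zipper, stood at 11.4, 24.6 and 51.1 CPM under vehicle and 4.82, 8.16 and 5.07 under combo (-2.28, edgeR adjusted p = 0.00187). Its vehicle values were widely spread, and without vehicle replicate 3 the change was -1.57 (adjusted p = 0.0029). Fkbp5, a co-chaperone of the glucocorticoid receptor, was less spread, at 85.4, 88.8 and 109 CPM under vehicle and 59, 53.2 and 43.8 under combo (-0.86, adjusted p = 0.000544). Whether mice received glucocorticoid with docetaxel is not stated in the labels.

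Splicing regulators were mixed as a list, with 10 of 33 higher and 7 lower (median 0.03, 11 and 3 with the offsets, and 11 and 2 with scaling on protein-coding genes). Without any 1 of EV vehicle replicates 1 to 3 or EV combo replicates 1 and 2, 3 or 4 were lower. Clk1 and Clk2 are kinases that phosphorylate SR proteins, and their own transcripts are known to keep introns. Clk1 stood at 65.8, 63.3 and 49.5 CPM with vehicle and 163, 178 and 154 with combo (log2 fold change 1.47, edgeR adjusted p = 0.000224), and Clk2 at 34.1, 29.6 and 32.1 CPM under vehicle and 86.6, 84 and 81 under combo (1.39, adjusted p = 1.6e-05). Combo values were over 2 times the vehicle values in every library, and the offsets left them at 1.48 and 1.38. Luc7l3, a U1-associated factor, rose from 132, 119 and 108 to 249, 260.3 and 236 CPM, and Srrm2, a scaffold of nuclear speckles, from 656, 658 and 619.6 to 1226, 1275 and 1139.8 CPM. Son, another speckle scaffold, rose from 1794, 1560.5 and 1059.9 to 3224, 3222 and 3454 CPM. Genes with over 30% of exon bases in annotated retained introns were higher in 20.4% and lower in 21.2%, against 9.52% and 26.5% of genes with none. These sets were not matched for exon number or exon length, which fold changes followed, so their contrast cannot be tied to retained introns. Counts per gene do not separate spliced from intron-keeping transcripts, so the part of unspliced RNA in these rises was not tested.

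Chromatin regulators with long coding sequences were higher in 18 of 33 and lower in 0 as fitted (median 0.33). With the offsets 7 were higher and 7 lower and the median was -0.04, so the direction of the list depends on that choice. Kmt2d, a histone methyltransferase of enhancers, stood at 466, 419.8 and 487 CPM under vehicle and 1349.8, 1244 and 1408 under combo, without overlap. It stayed higher with the offsets (0.90, edgeR adjusted p = 0.000534). Among genes of smallest p were Snapc4, of the complex that transcribes small nuclear RNA genes (19.2, 18 and 16 CPM under vehicle and 76.1, 71.6 and 64 under combo, 1.99, adjusted p = 1.6e-05), and Akap8l, a nuclear matrix protein (9.13, 8.55 and 6.09 CPM under vehicle and 57.2, 55.8 and 45.5 under combo, 2.73, adjusted p = 2e-05). Their lowest combo values were over 3 times their highest vehicle values. Snapc4 and Clk2 were among the 9 higher calls made again with the TEC covariate.

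Collagens, the fibrous and sheet-forming proteins of the matrix, had the highest median of the lists as fitted. They were higher in 20 of 27 and lower in 0 (median 1.34), against the background of 14% higher. Leaving out 1 EV library gave 19 to 21. They are long genes of many exons, and with the offsets 15 were higher and 1 lower (median 0.86). Col7a1, the anchoring fibril that ties epithelial basement membrane to the stroma, stood at 22.2, 15.5 and 13.5 CPM under vehicle and 432, 333 and 326 under combo (log2 fold change 4.41, SE 0.374, edgeR adjusted p = 4.4e-05). Col16a1, which sits beside fibrils, stood at 33.3, 42.3 and 40.7 CPM under vehicle and 303, 239 and 208 under combo (2.69, adjusted p = 4.4e-05). Col11a2, a cartilage fibril chain, stood at 0.937, 0.877 and 1.46 CPM under vehicle and 31.2, 16.2 and 22.4 under combo (4.41, adjusted p = 2e-05). All 3 combo libraries were several times above all 3 vehicle libraries in these genes, and the offsets left 3.46, 2.02 and 3.78. Col27a1 varied more among combo libraries (1.68, 1.4 and 0.625 CPM under vehicle and 28.1, 4.84 and 11.3 under combo). Col6a3, the chain of microfibrils made by fibroblasts, rose from 71.1, 80.2 and 59.8 to 243, 146 and 239 CPM.

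Other matrix genes depended more on the setting. Basement membrane and matricellular genes were higher in 16 of 33 and lower in 1 (median 0.56), and with the offsets in 9 and 2. Fbn1, the microfibril protein fibrillin, stood at 68.5, 75 and 58.5 CPM under vehicle and 157, 155 and 195 under combo and kept a change of 0.66 with the offsets (adjusted p = 0.00335). Lama5, a laminin chain of epithelial basement membrane, rose as fitted (0.94, edgeR adjusted p = 0.000317) but not with the offsets (0.17, adjusted p = 0.362). Among matrix proteases and crosslinkers 8 of 30 were higher and 1 lower (9 and 1 with the offsets), with 5 higher without EV combo replicate 1 or vehicle replicate 3. Mmp2, the gelatinase made mostly by stroma, stood at 7.94, 7.33 and 9.69 CPM under vehicle and 23.9, 26.4 and 32.7 under combo, without overlap (1.74, adjusted p = 0.000119; 1.87 with the offsets).

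**Figure D4:**
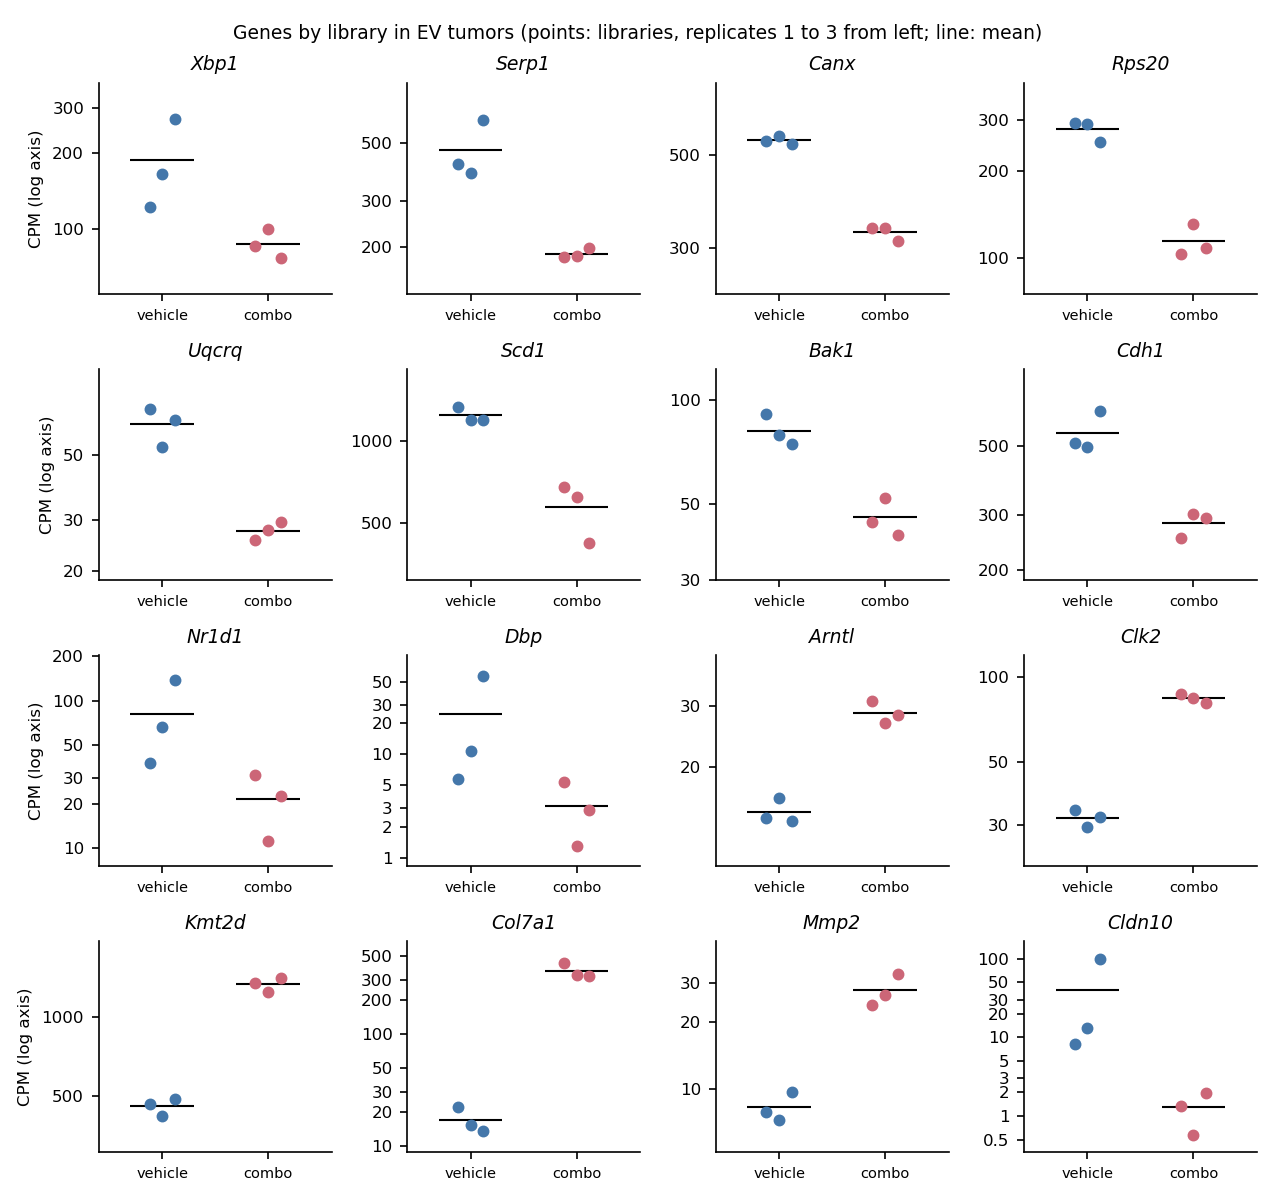
CPM of 16 genes in each EV library on log axes, 1 panel per gene, with points for replicates 1 to 3 from left and a line at the mean. Vehicle and combo points do not overlap in any panel, and Dbp and Cldn10 show vehicle replicate 3 far above the other vehicle libraries.

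Many markers of fibroblasts, pericytes and endothelium were higher with combo. Of 10 general epithelial markers 5 were lower, a share near that of genes at their level, and markers of basal epithelium were not lower. Of 10 fibroblast markers 6 were higher and 0 lower (median 0.99, and 3 higher with the offsets), and their summed level was 593 to 662 CPM under vehicle and 1122 to 2044 CPM under combo. Fap, an activation marker of tumor fibroblasts, stood at 4.88, 2.63 and 2.19 CPM under vehicle and 9.65, 9.46 and 10.6 under combo (1.61, edgeR adjusted p = 0.000882). Of 9 tested pericyte and smooth muscle markers 6 were higher and 0 lower (median 0.84, 5 with the offsets, and 3 without EV combo replicate 3), with sums of 231 to 307 and 366 to 533 CPM. Pdgfrb, the receptor that recruits pericytes, stood at 17.7, 25.3 and 18.1 CPM under vehicle and 52.5, 43.8 and 74.4 under combo, and Mcam, an adhesion molecule of vessels, at 47.6, 57.9 and 55.7 CPM under vehicle and 139, 83.1 and 114 under combo. Neither overlapped. Of 10 endothelial markers 5 were higher and 0 lower (median 0.79, and 4 higher with the offsets), with sums of 74.7 to 145 and 155 to 231 CPM under vehicle and combo. Without EV vehicle replicate 3 only 2 were higher, and without EV combo replicate 3 only 1. Flt1, a VEGF receptor, was called as fitted (0.77, edgeR adjusted p = 0.0078) and not with the offsets. The rise was not limited to these cell types: of 8 Schwann cell and nerve markers 4 were higher and 1 lower, as fitted and with the offsets. Sums of those markers overlapped, at 532 to 610 CPM under vehicle and 521 to 685 CPM under combo. Slit2, a secreted guidance cue, rose from 6.17, 12.9 and 13 to 40.4, 45.7 and 63.8 CPM, and Unc5b, a guidance receptor of vessels, from 11.6, 14.5 and 9.43 to 35, 27 and 40.5 CPM. Axon guidance genes as a list were higher in 10 of 35 and lower in 4, and with the offsets in 7 and 5. The fibroblast list holds collagen genes too, and the part of stromal cell number in the collagen rise was not tested.

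The epithelial label held in every library, since Epcam and Cdh1, the defining adhesion genes of epithelium, were abundant throughout. Epcam stood at 1268, 1396 and 1646 CPM with vehicle and 778, 781 and 802 with combo, and Cdh1 at 510.5, 497 and 646 CPM under vehicle and 253, 302 and 294 under combo. Both were lower without overlap, by 0.87 and 0.96 on the log2 scale (edgeR adjusted p = 0.00336 and 0.000279). Summed over 10 epithelial markers the level was 3487 to 4322 CPM under vehicle and 2101 to 2564 CPM under combo, with 5 lower and 0 higher (median -0.57), and with the offsets 3 lower (median -0.13). Of these 10 markers 8 were in the bin of highest level, where 44.7% of protein-coding genes were lower. Of 8 basal and myoepithelial markers 2 were higher and 0 lower (median 0.23, and 0.68 with the offsets), with overlapping sums of 1761 to 2199 CPM under vehicle and 1845 to 2590 CPM under combo. Epithelial junction and keratin genes were lower in 13 of 32 and higher in 1, but lower in 6 with scaling on protein-coding genes or without EV vehicle replicate 3, and in 9 with the offsets. Of the 32 genes 17 were in the bin of highest level. Cldn7, a tight-junction claudin, went from 179, 174 and 178 to 67.9, 94.6 and 93.1 CPM. The list for epithelial-mesenchymal transition holds transcription factors, cadherins and Vim. Its genes were higher in 6 of 15 and lower in 1 (median 0.58, and 6 and 0 with the offsets), and 2 were higher without EV combo replicate 3. Zeb1, which represses Cdh1, stood at 6.51, 6.84 and 7.03 CPM under vehicle and 24.2, 13.5 and 16.5 under combo, with every combo library above every vehicle library (1.41, adjusted p = 0.00037). Vim, the mesenchymal filament vimentin, stood at 185, 184 and 111 CPM under vehicle and 313, 191 and 211 under combo and was not called (adjusted p = 0.15). Stromal cells express Zeb1 and Vim as well.

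Several of the largest falls leaned on 1 vehicle library. Gnao1, a G protein subunit of neurons and endocrine cells, stood at 4.34, 8.73 and 57.8 CPM with vehicle and 0.888, 0.433 and 0.684 with combo. Cldn10, an ion-channel claudin, stood at 8.34, 13.3 and 99.2 CPM under vehicle and 1.33, 0.578 and 1.94 under combo. Khdrbs3, an RNA-binding splicing factor, stood at 2.17, 2.11 and 28.5 CPM under vehicle and 0, 0.506 and 0.741 under combo. Vehicle replicate 3 was over 6 times the next library in each, and combo was still the lowest group. Without that library the log2 fold changes were -3.24 in place of -5.11 for Gnao1 (edgeR adjusted p = 0.00189), -3.03 in place of -4.94 for Cldn10 (0.00093) and -2.30 in place of -4.68 for Khdrbs3 (0.0297). Slc16a6, a monocarboxylate transporter, moved likewise from -2.43 to -1.73 (adjusted p = 0.000439). Cldn2, the claudin of leaky epithelia, was more even, at 56.1, 73.5 and 129 CPM under vehicle and 5.08, 15.2 and 5.98 under combo (-3.31, adjusted p = 0.0003), and so was Arg1, the arginase of urea synthesis and of macrophages (42.9, 20.3 and 32 CPM under vehicle and 11.7, 5.71 and 7.35 under combo, -1.94, adjusted p = 0.000909). Igf2, a growth factor of the embryo, was lower in all combo libraries (18963, 24427 and 34601 CPM under vehicle and 14747, 13442 and 11637 under combo, -0.97, adjusted p = 0.00203).

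Outside the matrix, clustered protocadherins, neuronal adhesion proteins, gave some of the largest rises among genes of at least 10 CPM that held in every refit. Pcdhgc5 stood at 1.53, 0.351 and 0.625 CPM under vehicle and 12.6, 13.7 and 10.03 under combo (3.86, edgeR adjusted p = 0.000153), Pcdhgc4 at 1.23, 1.14 and 0.313 CPM under vehicle and 9.27, 13 and 10.3 under combo (3.58) and Pcdhga9 at 1.78, 0.965 and 1.15 CPM under vehicle and 14.1, 10.04 and 12.3 under combo (3.23). The groups were far apart, but these genes overlap in the annotation and share exons, so their counts are uncertain and not independent. Other rises included Gabbr1, a subunit of the GABA-B receptor, from 9.27, 7.5 and 4.01 to 59.4, 42.6 and 55.9 CPM (2.92, edgeR adjusted p = 4.4e-05). Rgs11, a brake on G protein signaling, went from 1.28, 1.54 and 2.5 to 20.1, 13.8 and 7.24 CPM (2.95, adjusted p = 0.000245). Setbp1, a nuclear protein that binds the oncoprotein SET, went from 0.987, 5.53 and 1.72 to 36.1, 10.5 and 25.8 CPM (3.12; 4.18 without EV vehicle replicate 2). Tbx3, a T-box factor of mammary development, went from 0.395, 0.614 and 0.417 to 7.23, 1.88 and 20.3 CPM. The groups were separate in Gabbr1, Rgs11, Setbp1 and Tbx3, but Tbx3 spread over 10-fold among combo libraries, and without combo replicate 3 its log2 fold change was 3.24 in place of 4.34 (adjusted p = 0.00324).

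Lymphocyte genes were called lower largely through vehicle replicate 2. Jchain, the joining chain of secreted antibodies, stood at 2.27, 119 and 1.25 CPM under vehicle and 0.317, 0.722 and 0.228 under combo, and Cd3e, of the T-cell receptor complex, at 2.56, 11.8 and 1.56 CPM under vehicle and 0.635, 1.44 and 1.6 under combo. Combo lay below vehicle for Jchain, and for Cd3e vehicle replicate 3 and combo replicate 3 were level. Both were called lower (-6.63 and -2.12, edgeR adjusted p = 0.0106 and 0.0205). Without that library the changes were -2.05 for Jchain (adjusted p = 0.0208) and -0.72 for Cd3e (0.211). Jchain also lost its call without EV combo replicate 3 (-6.31, adjusted p = 0.0519). Among 9 tested T-cell markers 2 were lower (median -1.42, and 1 with the offsets), with sums over 10 markers of 6.51 to 50.02 CPM under vehicle and 5.71 to 9.90 CPM under combo. None was called by edgeR without EV combo replicate 1 or vehicle replicate 2, and 4 were lower without EV vehicle replicate 3. None of 12 macrophage markers was called by edgeR (median -0.13, 0.02 with upper-quartile scaling and 0.12 with the offsets), 0 at an unadjusted p under 0.05, 0 by DESeq2 and 1 by voom, with sums of 492 to 1007 and 560 to 797 CPM. C1qa, a complement gene of tissue macrophages, overlapped (119, 95 and 50.6 CPM under vehicle and 60.4, 65.4 and 83.8 under combo). With EV vehicle replicate 3 left out 4 macrophage markers were called lower, C1qa among them, which was lower by 0.58 (adjusted p = 0.0104).

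Few interferon-stimulated genes were called, with 2 of 31 higher and 1 lower (median 0.05), and 1 and 0 with the offsets. Without EV vehicle replicate 2 the higher count was 7, and without EV vehicle replicate 3 the lower count was 5. Herc6, an interferon-induced ubiquitin ligase, stood at 5.92, 9.56 and 4.32 CPM under vehicle and 15.1, 16.8 and 14.8 under combo (1.23, edgeR adjusted p = 0.00199). Bst2, the virus tether tetherin, stood at 30.3, 45.8 and 27.3 CPM under vehicle and 17.6, 17 and 21.6 under combo (-0.88, adjusted p = 0.00386), and lost its call with the offsets. Of 18 genes of antigen presentation by MHC class I and II, 1 was higher and 4 lower (median -0.53). With the offsets 1 and 1 were called (median -0.08), with scaling on protein-coding genes 1 and 2, and without EV vehicle replicate 2 the counts were 2 and 2 and the median 0.13. Without EV combo replicate 1 or 2 the lower count was 2 as well. Nlrc5, the activator of class I genes, was the 1 that was higher, at 18.5, 47.6 and 18.8 CPM under vehicle and 62.4, 72.1 and 94.8 under combo (1.43, adjusted p = 0.00411). Chemokines gave 1 higher and 2 lower of 22 (3 and 1 with the offsets). NF-kB and cytokine genes gave 1 higher and 5 lower of 21, 2 and 1 with the offsets, 1 and 1 with scaling on protein-coding genes, and 1 to 3 lower without any 1 of EV vehicle replicates 2 and 3 and the EV combo libraries.

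Several of these effects differed from the same contrast in p53ERTAM tumors. In p53ERTAM tumors combo changed 881 of 13911 protein-coding genes (6.33%), and the test of the difference between vectors called 4836 (34.8%). The 2 contrasts share no library. All 33 proteasome genes differed, with a median of -0.50 in EV and 0.43 in p53ERTAM tumors. Oxidative phosphorylation genes differed in 42 of 47 (medians -0.76 and 0.28), lysosome genes in 20 of 25 (-0.47 and 0.54) and ribosomal proteins in 52 of 65 (-0.87 and -0.12). Interferon-stimulated genes differed in 24 of 31, and 28 of the 31 were higher in p53ERTAM tumors. Collagens differed in 19 of 27 (medians 1.34 and -0.06) and unfolded protein response genes in 15 of 25 (-0.52 and 0.23). By contrast, cholesterol and fatty-acid synthesis genes differed in 5 of 30 (-0.45 and -0.14), under the background. Single genes whose difference was not called include Tuba1a (1.20 in EV and 0.94 in p53ERTAM tumors), Mcam (1.06 and 0.63), Igf2 (-0.97 and -1.27) and Setbp1 (3.12 and 1.24). A difference that was not called does not show alike responses. For Setbp1 it was 1.88 (SE 0.824, edgeR adjusted p = 0.0929). RNA make-up moved the other way there: TEC genes held 0.427 to 0.890% of counts in the 3 p53ERTAM vehicle libraries and 0.267 to 0.402% in the 3 p53ERTAM combo libraries, without overlap, against 0.185 to 0.333% and 0.779 to 0.842% in EV vehicle and combo. The test of the difference thus compares contrasts with opposite shifts of make-up. The part of that make-up in the differences was not tested.

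**Figure D5:**
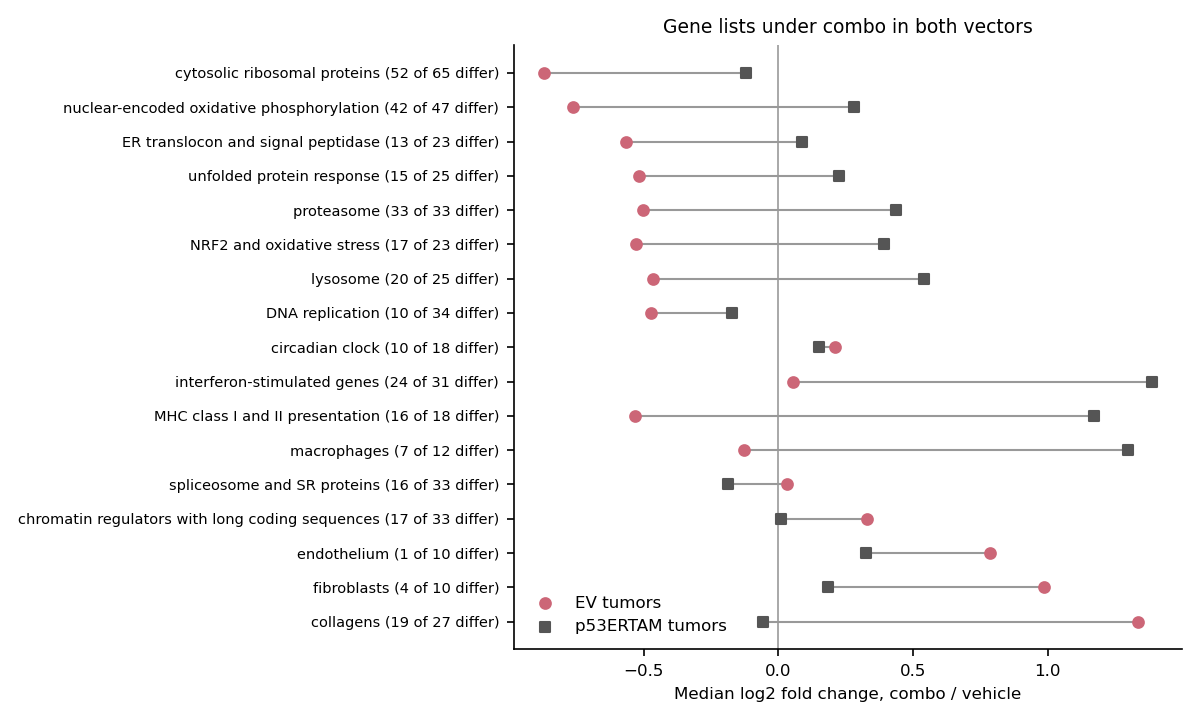
Median log2 fold change of each gene list for combo against vehicle, as a circle for EV and a square for p53ERTAM tumors, with the number of genes whose change differed between them in the row labels. Proteasome (-0.50 and 0.43) and lysosome (-0.47 and 0.54) lists have opposite signs, interferon-stimulated genes lie near 0 in EV and at 1.39 in p53ERTAM tumors, and collagens at 1.34 in EV and -0.06 in p53ERTAM tumors.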

How the data were processed

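RNA of 12 bulk tumors was sequenced as stranded, ribosome-depleted total RNA, per the labels' protocols. The submitters' processing notes name the build GRCm38.p5 and the tools fastp, FastQC, featureCounts and STAR without versions, and the annotation release and strand setting are not given in the sources used here. Values are whole counts of 52636 genes as deposited by the authors, not normalized, in the featureCounts layout per the file headers. Symbols and gene classes came from a GENCODE annotation, in which 49121 identifiers matched exactly, 3368 without the version and 147 not at all. Groups came from the sample titles.

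Counts of the 17970 genes passing filterByExpr were fitted with edgeR 4.0.16 (R 4.3.3; TMM scaling, robust quasi-likelihood F-test, 4 group means over 12 libraries, 8 residual degrees of freedom), with Benjamini-Hochberg adjustment over all genes and a threshold of 0.05. On data simulated for combo against vehicle in EV tumors over 17970 genes, with 50 genes changed per fold, the test recovered 12% at 1.5-fold, 54% at 2-fold, 68% at 4-fold and 96% at 8-fold, with 8% false calls. The simulation changed few genes and held no shift of RNA make-up, so these rates need not hold for the data. Alternatives used DESeq2 1.42.0, limma 3.58.1 (voom with quality weights), other scalings and filters, a fold of 1.5, EV libraries alone, a replicate block, the TEC share as a covariate and each library left out. No pairing by replicate number was seen, and the main fit treated the samples as unpaired. The members and lists were chosen with earlier results of these data known. Genes named were 15 set ones, up to 12 per direction by size of change, 8 by smallest p and 8 by level, in each case with at least 10 CPM, no overlap and a call in every refit without 1 EV library, and up to 4 per list by smallest p. A subset of these is printed. Calr, Hsp90b1, Creld2, Alg12, Copb1, Kdelr3, Sec24d, Ms4a1 and the noncoding genes were picked with their values already known. Paralogs, overlapping genes and antisense genes can share reads.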

Additional observations from a re-analysis of the deposited data

Results flagged for a closer look

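The response to combo differed between EV and p53ERTAM tumors, by edgeR's interaction test at an adjusted p under 0.05, in 4836 of 13911 protein-coding genes (34.8%) and in 92 of the 116 genes named. Most of these genes were picked by their p or change in the EV contrast, which enters this test. Their share is thus not comparable with the 34.8%. Each value is the log2 fold change in EV minus that in p53ERTAM tumors, so a negative value is a lower response in EV tumors. Groups of 3 are too small for a test of the gap between 1 value and the rest.

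Secretory pathway and stress genes differed as follows: Xbp1 -1.38, Atf4 -0.50, Dnajc3 -0.83, Canx -0.86, Calr -0.94, Hsp90b1 -0.58, Pdia6 -0.75, Spcs3 -0.85, Serp1 -1.62, Ssr3 -0.81, Magt1 -0.69, Ddost -1.03 and Copb1 -0.88. Genes of translation differed as follows: Rps20 -0.90, Rps9 -0.79, Rplp1 -0.95, Rplp2 -0.75, Mrpl12 -0.75, Npm1 -0.75, Eif1 -0.91, Eef1a1 -0.90 and Psat1 -1.43. Metabolic genes differed as follows: Sdhd -1.14, Uqcrq -1.38, Cox4i1 -1.06, Pdha1 -0.58, Cs -0.74, Ldha -0.65 and Scd1 -1.15. Genes of protein degradation, folding, oxidative stress and the lysosome differed as follows: Psmb5 -1.0, Psmd8 -1.53, Psmd2 -0.70, Hspe1 -0.96, Gsr -1.17, Gpx4 -1.70, Lamp1 -1.57 and Psap -1.20. Cycle, death and efflux genes differed as follows: Fen1 -1.0, Ccne1 -1.40, Espl1 1.26, Ccng1 -1.80, Ddb2 1.41, Bak1 -1.34 and Abcc10 2.04. Clock and glucocorticoid genes differed as follows: Dbp -3.49, Nr1d1 -2.88, Nr1d2 -1.64, Hlf -1.32, Arntl 1.13, Tsc22d3 -3.23 and Fkbp5 -0.89.

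Splicing and chromatin genes differed as follows: Clk1 2.06, Clk2 1.34, Srrm2 1.01, Son 1.37, Luc7l3 1.66, Kmt2d 1.91, Akap8l 3.35 and Snapc4 2.06. Matrix genes differed as follows: Col7a1 5.20, Col16a1 3.50, Col11a2 4.99, Col27a1 4.23, Col6a3 1.26, Fbn1 0.69, Lama5 1.09 and Mmp2 0.80. Stromal and vessel genes differed as follows: Fap 1.25, Pdgfrb 1.14, Flt1 0.80, Slit2 1.91 and Unc5b 1.62. Epithelial genes and their repressor differed as follows: Cdh1 -1.13, Cldn7 -0.94, Epcam -1.20, Zeb1 1.52, Cldn10 -4.99 and Cldn2 -2.49. Immune genes differed as follows: Cd3e -3.30, Jchain -9.19, Bst2 -1.87 and C1qa -1.95. The other genes differed as follows: Gnao1 -5.64, Khdrbs3 -5.24, Tbx3 4.46, Pcdhgc5 4.14, Pcdhgc4 5.24, Pcdhga9 3.80, Gabbr1 3.56, Rgs11 4.07, Arg1 -2.76 and Slc16a6 -2.50. Jchain and Cd3e carry the lymphocyte RNA of EV vehicle replicate 2, and Gnao1, Cldn10, Khdrbs3, Dbp and Slc16a6 the high values of EV vehicle replicate 3. The shift of RNA make-up between EV vehicle and EV combo, and the opposite shift of TEC share in p53ERTAM tumors, stand beside all of these values. Their part in them was not tested.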

How the results depend on the processing

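Of 100 called genes named, 94 to 100 kept their direction and call under the other scalings and filters, EV libraries alone, the replicate block, voom, the offsets and refits without 1 library, and 97 of 98 under DESeq2. Against a fold of 1.5, 70 did. The exceptions were 6 genes with the offsets (Atf4, Rplp1, Psmb5, Lama5, Flt1 and Bst2), Dbp (adjusted p = 0.0502) and Cd3e (0.079) with no low-count filter, Dbp (0.0576), Tbx3 (0.0543) and Jchain (0.29) by voom, Cd3e with EV libraries alone (0.0784) and without EV combo replicate 1 (0.0771) or EV vehicle replicate 2 (0.211), Jchain without EV combo replicate 3 (0.0519), Copb1 without EV combo replicate 2 (0.0505) or EV vehicle replicate 3 (0.0837), and Hsp90b1 in most settings.

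With the TEC share as a covariate 13 protein-coding genes were higher, 34 lower and 61 of all genes called, 9 of the 100 named kept their call and 1 intronic TEC gene was higher in place of 700. The test of the difference between vectors then called 0 protein-coding genes by edgeR, with 1007 at an unadjusted p under 0.05, and it was not run by another tool under that setting. Signs turned for Hsp90b1 (0.25), Copb1 (0.13) and Epcam (0.24) and for the medians of N-glycosylation (0.064), COPI and COPII (0.13), cholesterol and fatty-acid synthesis (0.021), proteasome (0.043), DNA replication (0.030), NRF2 (0.047), histones (0.29) and B-cell (0.81) lists. The cause was not tested, though the covariate does not overlap between the EV groups. Against a fold of 1.5, 544 were higher, 382 lower, 1870 of all genes called and 1383 different between vectors. Upper-quartile scaling gave 2330 lower against 2613 higher. The offsets gave 2178 lower and 3071 different between vectors, and a median of -0.045 for chromatin regulators.

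Leaving out 1 library gave 1492 to 2005 higher, 2772 to 3827 lower, 5669 to 7662 of all genes called, 3537 to 5031 different between vectors and 607 to 705 intronic TEC genes higher. The replicate block gave 1839 higher and 3342 lower. EV libraries alone gave 1842 higher and 2585 lower. Deviations of same-numbered libraries correlated at -0.027, -0.026 and -0.040, and those of other pairs at -0.048 to 0.071. No pairing by number was seen, but whether samples were handled together cannot be told from these values. Groups of 3 limit what can be called. In the simulation, with 50 genes changed per fold, 12% of 1.5-fold changes were recovered. Far more genes were called in the data, 7169 of 17970, so that rate does not give the sensitivity of this contrast.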
